A study of Mus musculus with 6 samples.

Results

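Contacts that joined pairs of fragments far from the α-globin locus on chromosome 11 were examined in Tri-C data from mouse erythroid cells. A contact was taken as distant when the midpoints of both of its NlaIII fragments lay on chromosome 11 of mm9 outside a zone from 31.07 to 33.25 Mb, which leaves 1 Mb on each side of the region of the locus that the study analysed. Over all 12 tables this rule kept 51247 of 173975 listed fragment pairs, with 80409 of 349609 counts, or 23% of the counts. A further 35079 listed pairs had only 1 end outside that zone, and 87649 had both ends inside it.

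The samples were Ter-119+ erythroid cells, selected on beads from spleens of female C57BL/6 mice that had been given phenylhydrazine, an agent that destroys red cells and so drives new red cell formation in the spleen. Wild type (WT) mice and D3839 mice, in which the core motifs bound by CTCF at the sites HS-38 and HS-39 upstream of the α-globin genes carry small deletions, contributed 3 biological replicates each. Each library was read from 2 viewpoints, the R2 enhancer of the α-globin genes and the promoter of Mpg, a DNA repair glycosylase gene upstream of them. WT libraries were made with another reagent set than D3839 libraries, so that genotype and preparation cannot be told apart in any comparison of WT with D3839.

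Tri-C reads hold a viewpoint fragment together with several other fragments that were ligated to it in the same nucleus, so a distant contact is a read in which the viewpoint met a pair of fragments elsewhere on its chromosome. In mammalian nuclei, contact frequency falls with the distance along the chromosome, and gene-rich, active chromatin tends to meet other gene-rich chromatin while gene-poor chromatin meets its own kind. Mouse chromosome 11 is telocentric, so low coordinates lie on the centromeric side of the locus and high coordinates on the telomeric side. A fragment pair can also be adjacent, that is, neighbours in the uncut genome, in which case the sequence across the junction is the genomic sequence itself, and the tables do not tell an uncut site from a religated one.

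Of all 49440 distinct distant pairs, 20624 were of this adjacent kind, and of the 1644 found in 2 or more tables, 1483 were. The mm9 reference sequence across their NlaIII site is shown for some of the junctions with the most counts or in the most tables. It is given on the plus strand, 5′ to 3′, with the site CATG in capitals between stretches of the fragments that it joins. The fragments in the tables meet in the middle of this site.
Ikzf1 intron junction (chr11:11630099-11630153): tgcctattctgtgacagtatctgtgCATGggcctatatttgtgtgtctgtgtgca
Eml6 exon junction (chr11:29724172-29724245): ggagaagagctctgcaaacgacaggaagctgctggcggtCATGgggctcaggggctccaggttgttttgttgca
Asb3 intron junction (chr11:30872185-30872266): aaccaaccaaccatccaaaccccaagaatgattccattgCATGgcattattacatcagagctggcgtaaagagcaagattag
Asb3 other intron junction (chr11:30900681-30900762): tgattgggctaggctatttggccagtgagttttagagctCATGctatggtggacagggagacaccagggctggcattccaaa
Ewsr1 intron junction (chr11:4984907-4984988): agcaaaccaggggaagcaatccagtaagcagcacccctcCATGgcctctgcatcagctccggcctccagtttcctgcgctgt
Intergenic junction with the highest count (chr11:43262018-43262099): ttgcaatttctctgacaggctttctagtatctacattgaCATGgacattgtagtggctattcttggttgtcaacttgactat
Intergenic junction in 4 tables (chr11:51495540-51495619): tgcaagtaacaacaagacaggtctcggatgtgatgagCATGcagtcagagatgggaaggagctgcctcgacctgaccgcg

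The Ikzf1 junction, in an intron of the gene for Ikaros, a lymphoid transcription factor, had 12 counts over 3 tables. The Eml6 junction, in coding sequence of a microtubule-associated protein gene that overlaps 4931440F15Rik, had 12 counts, of which 9 came from 1 of its 2 tables. The intergenic junction at chr11:43262018-43262099 had the highest count of any distant pair, 13, and all 13 came from WT replicate 1 of the Mpg viewpoint. In contrast, the intergenic junction at chr11:51495540-51495619 had 11 counts over 4 tables, with 5 counts in D3839 replicate 3, 1 in WT replicate 1 and 3 in WT replicate 2 of Mpg, and 2 in D3839 replicate 3 of R2.

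No distant pair was listed in more than 4 of the 12 tables, and 11 reached 4 tables. Of these 11 pairs, 10 were adjacent, against 20624 of all 49440 distinct distant pairs. Close to the edge of the zone left out lay 6 of the 11, in introns of Asb3, which encodes a substrate receptor of a ubiquitin ligase. The Asb3 junction at chr11:30872185-30872266 had 10 counts and the one at chr11:30900681-30900762 had 8 counts. A further intergenic junction at chr11:51798487-51798545 had 12 counts over 3 tables. The Ewsr1 junction, in an intron of an RNA-binding protein gene 27.66 Mb away by the centre of its 1 Mb bin, had 1 count in each of 4 tables.

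Among non-adjacent pairs, the highest counts each came from 1 table. A pair of fragments at chr11:94415489-94415670 and chr11:94415736-94415931 had 12 counts in WT replicate 3 of Mpg. A pair in an intron of Rpl26, a ribosomal protein gene, at chr11:68719067-68719286 and chr11:68719337-68719463, had 11 counts in WT replicate 3 of R2. A pair in an intron of Alox12b, an epidermal lipoxygenase gene, had 10 counts in WT replicate 2 of Mpg. The fragment at chr11:94415489-94415670 also formed the next pair, with chr11:94415932-94415979, at 10 counts in the same table. A pair that joined an intergenic fragment and an intron of Sh3bp5l 7328 bases apart had 9 counts in D3839 replicate 2 of R2.

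Distant contacts were thus spread thinly over many pairs. The 51247 listed pairs were 49440 distinct pairs, of which 47796 occurred in a single table and 1644, or 3.33%, in 2 or more. Of the distinct adjacent pairs, 7.19% occurred in 2 or more tables, against 0.934% of non-adjacent pairs up to 1 Mb apart and 0.140% of pairs over 1 Mb apart. Possible adjacent pairs are far fewer than possible pairs at larger separation, so these shares do not rest on like numbers of possible pairs. Among the 13620 distinct pairs over 1 Mb apart, 19 recurred, none in more than 2 tables, and 1 of them was seen from both viewpoints. A listed distant pair held 1.57 counts on average and 61.2% held 1 count, while pairs over 1 Mb apart held 1.5 counts on average. The contacts were therefore summed in 1 Mb bins, with a contact counted once in each bin that held 1 of its ends, which gave 118 bins with at least 10 counts over the 6 samples of each viewpoint.

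On chromosome 11 the R2 tables held 21962 ± 4323 counts in WT and 24120 ± 982 in D3839, and those of Mpg held 34817 ± 4278 and 35636 ± 993 (SD, n = 3), of which the distant part was from 3312 to 10964. All 88602 fragments named in the tables were NlaIII fragments of the mm9 sequence. With 3 samples in each genotype, an exact permutation test allows no two-sided p below 0.1, and the 8 shares compared by genotype were adjusted together.

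The distant part of each table was smaller in D3839 than in WT from both viewpoints. For R2, distant contacts made up 24.97%, 25.5% and 24.9% of chromosome 11 counts in replicates 1, 2 and 3 of WT, against 14.1%, 14.3% and 15.95% in D3839. The groups did not overlap, and the means differed by -10.3 percentage points (25.1% ± 0.310 in WT, 14.8% ± 1.02 in D3839, SD, n = 3, exact permutation p = 0.1, adjusted p = 0.2). For Mpg the shares were 28.6%, 31.5% and 27.7% in WT and 20.6%, 21.0% and 22.2% in D3839. Here too the groups did not overlap, with a difference of -8.01 percentage points (29.3% ± 1.98 and 21.3% ± 0.841, SD, n = 3, exact permutation p = 0.1, adjusted p = 0.2). Since these are shares, a smaller distant part is also a larger part with an end near the locus.

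Within each of the 6 samples, the distant share was higher from Mpg than from R2. The difference averaged 5.33 percentage points and ran from 2.83 to 6.70 (exact sign-flip test, p = 0.03125, the smallest that 6 pairs allow, adjusted p = 0.0469 over 6 measures). The distant share of R2 was 0.808 to 0.898 times that of Mpg in WT samples and 0.681 to 0.718 times in D3839 samples, which did not overlap (exact permutation p = 0.1, n = 3 in each genotype).

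**Figure D1:**
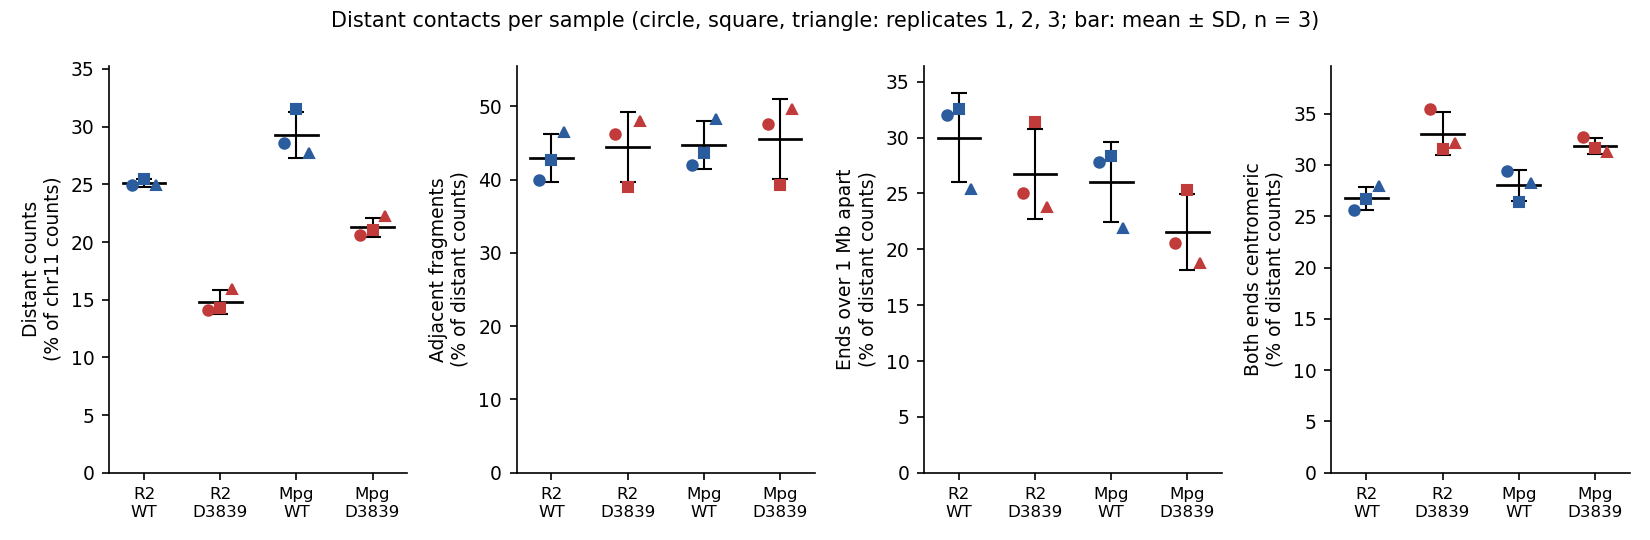
Percent of counts on the y axes for each sample, by viewpoint and genotype on the x axes, with circles, squares and triangles for replicates 1, 2 and 3 and bars for the mean ± SD. The distant share separates WT from D3839 in both viewpoints, while the adjacent share runs from 38.98% to 49.6% with the genotypes interleaved.

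Along the chromosome, the counts followed distance from the locus with peaks and troughs at fixed places. Bins were ranked by the mean over the 6 samples of each viewpoint, WT and D3839 together. The highest bin on this mean from both viewpoints was chr11:30000001-31000000, the nearest complete bin, which holds Psme4, a proteasome activator gene, Spnb2, a spectrin gene, and Asb3. It took 1.1%, 0.967% and 1.16% of chromosome 11 counts in WT from R2, while in D3839 it took 0.922%, 0.850% and 1.11%. From Mpg it took 1.42%, 1.33% and 1.18% in WT and 1.40%, 1.25% and 1.19% in D3839, so that the genotypes overlapped on this scale in both viewpoints. Its neighbour chr11:29000001-30000000, with the reticulon gene Rtn4, the ubiquitin fusion gene Rps27a and Eml6, ranked 3 of 118 from both. In WT alone, chr11:58000001-59000000 (1.19%) stood above chr11:30000001-31000000 (1.07%) from R2. From Mpg in WT alone, chr11:53000001-54000000 (1.36%) stood above it (1.31%).

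Far from the locus, single bins stood well above the median bin. Over both genotypes, the bin chr11:58000001-59000000, 26.34 Mb away on the telomeric side, ranked 2 from R2 and 6 from Mpg. From R2 it was the highest bin in WT alone, and in D3839 alone it lay below chr11:30000001-31000000 and chr11:29000001-30000000. The bin chr11:58000001-59000000 holds 47 protein-coding gene starts, among them Trim58, a ubiquitin ligase gene of late red cell maturation, the histone genes Hist3h2a and Hist3h2ba, and 20 olfactory receptor genes. From R2 it took 1.37%, 1.26% and 0.937% in WT, all above the 0.673%, 0.419% and 0.657% of D3839. From Mpg it took 1.04%, 1.31% and 0.923% in WT, again all above the 0.770%, 0.819% and 0.758% of D3839. In comparison, the median bin took 0.152% from R2 and 0.148% from Mpg, over all bins tested whatever their distance. The median of up to 10 bins flanking chr11:58000001-59000000 was higher, at 0.429% from R2 and 0.657% from Mpg in WT. In D3839 this flanking median was 0.204% from R2 and 0.378% from Mpg. The bin thus stood above its surroundings too, but by less than above the median bin.

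The remaining high bins lay on both sides, and their ranks are again over both genotypes and can differ within 1 genotype. The bin chr11:53000001-54000000, with the interleukin genes Il4, Il5 and Il13, the DNA repair gene Rad50 and Irf1, ranked 5 from R2 and 2 from Mpg. From Mpg it was the highest bin in WT alone (1.36%), while in D3839 (0.872%) it lay below chr11:51000001-52000000 (0.883%), among others. The bin chr11:51000001-52000000, with Hnrnpab, an RNA-binding protein gene, and Ppp2ca, a phosphatase subunit gene, ranked 4 from both. From R2 it took 0.810% in WT and 0.424% in D3839, where chr11:34000001-35000000 (0.556%) and chr11:20000001-21000000 (0.480%) were among the bins above it. On the centromeric side, chr11:4000001-5000000, with Ewsr1, Sf3a1, a splicing factor gene, and the cytokine genes Osm and Lif, ranked 6 from R2 and 5 from Mpg, although it lies 27.66 Mb from the locus. The bin chr11:20000001-21000000, with Actr2 and Rab1, genes of actin assembly and vesicle transport, ranked 8 from both.

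Of the top 10 bins by the mean over both genotypes, 7 were shared between the viewpoints, and all lay within 30 Mb of the locus. Gene-rich bins, defined after the data were seen as bins with at least 10 protein-coding gene starts, were 59 of the 118 bins tested, 6 of the top 10 from R2 and 9 of the top 10 from Mpg. The top bins from R2 that did not reach the top 10 from Mpg were 3, among them chr11:44000001-45000000, with Ebf1, a B cell transcription factor gene, and Il12b, and chr11:34000001-35000000, with Dock2, Foxi1 and Slit3. The third was the incomplete bin chr11:33250001-34000000, with Lcp2 and Kcnip1. Those in the top 10 from Mpg alone held Bcl11a (chr11:23000001-24000000), Mapk9 (chr11:49000001-50000000) and Srebf1 (chr11:60000001-61000000). These sets depended on ranking both genotypes together. In WT alone from R2, the bins of Bcl11a (0.655%) and Mapk9 (0.640%) stood above those of Dock2 (0.630%) and Lcp2 (0.623%). The top 10 bins together held 25.8% of the binned counts from R2 and 29.7% from Mpg.

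**Figure D2:**
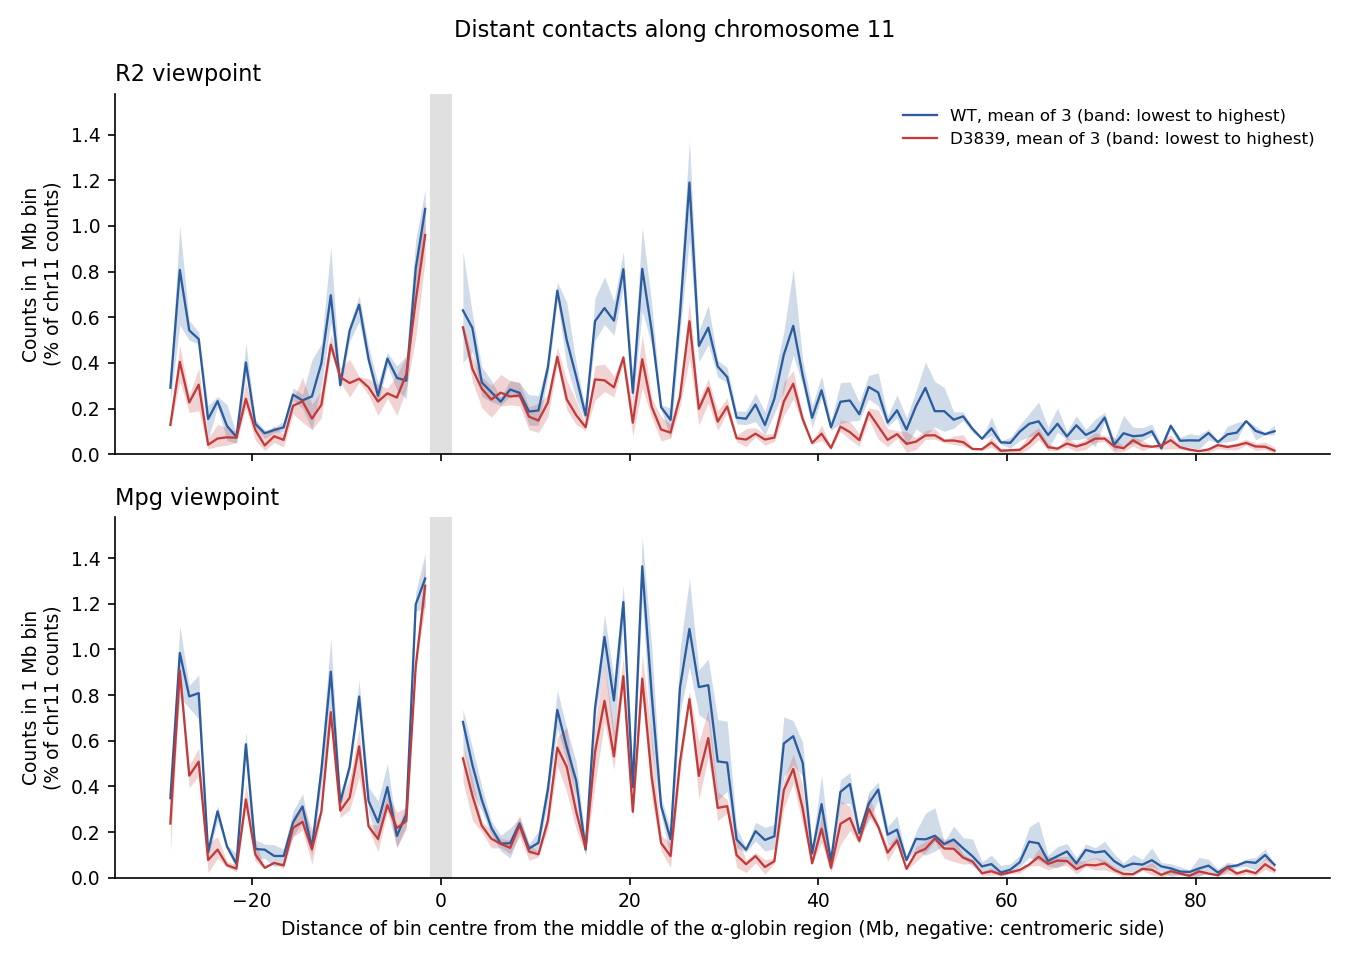
Counts in each complete 1 Mb bin as percent of all chromosome 11 counts on the y axis, against the distance of the bin from the middle of the locus in Mb on the x axis, with lines for the mean of 3 samples and bands from the lowest to the highest. Most peaks stand at the same bins in WT and D3839 and from R2 and Mpg, and the zone left out is grey.

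At a given distance, gene-rich bins took more counts than gene-poor bins. From 10 to 30 Mb, the mean of the 16 gene-rich bins over that of the 23 gene-poor bins was 2.25 ± 0.0712 in WT and 1.72 ± 0.179 in D3839 from R2. From Mpg it reached 2.80 ± 0.140 in WT, and 2.68 ± 0.0909 in D3839 (SD, n = 3 samples). Spearman's rho across these 39 bins between the mean share and the number of gene starts was 0.825 and 0.684 from R2 in WT and D3839, and 0.878 and 0.838 from Mpg. The bins share their libraries, and rho with GC content was 0.695, 0.467, 0.778 and 0.694 in the same order, whereas rho with the number of NlaIII fragments in the bin was from 0.139 to 0.324. The part of base composition in the relation with genes was not tested.

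The same ratio was above 1 in every band of distance. From 1 to 10 Mb, with 3 gene-rich bins, it was 2.37 in WT and 2.23 in D3839 from R2 and 3.59 and 3.77 from Mpg. From 30 to 60 Mb it was 1.80 and 1.96 from R2 and 2.41 and 2.91 from Mpg, and from 60 to 90 Mb it was 1.49 and 1.83 from R2 and 1.81 and 2.33 from Mpg. In the last band the sample values from Mpg in D3839 spread from 1.69 to 3.57.

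The sides of the locus differed at matched distance, and not in a fixed direction. From 1 to 10 Mb, telomeric bins took 0.637 ± 0.0257 times the counts of centromeric bins in WT and 0.736 ± 0.0567 times in D3839 from R2, and 0.522 ± 0.101 and 0.501 ± 0.0704 times from Mpg. From 10 to 20 Mb the order was turned, with ratios of 1.92 ± 0.313 and 1.42 ± 0.201 from R2 and 2.22 ± 0.371 and 2.11 ± 0.105 from Mpg. From 20 to 29 Mb the ratios were from 1.39 to 1.56. Mean gene starts per bin on the centromeric and telomeric sides were 5.22 and 2 in the nearest band, 3.10 and 12.3 in the middle band and 11 and 17.4 in the last, so in each band the side with more gene starts was the side with more counts.

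Fragments in distant contacts also lay closer to genes than the genome at large. Of all 575221 NlaIII fragments outside the zone, 47.5% had their midpoint in a gene and 20.3% lay within 10 kb of a gene start. Among the ends of distant contacts these shares were 54.5% ± 1.22 and 28.5% ± 1.69 from R2, and 58.4% ± 0.742 and 32.2% ± 0.821 from Mpg (SD, n = 6 samples). Here a fragment entered once for each count of each pair that held it, while all fragments outside the zone entered once each. Both shares were higher from Mpg than from R2 in 6 of 6 samples, as was mean GC content, at 44.9% against 44.4% (for each, exact sign-flip test, p = 0.03125, adjusted p = 0.0417 over 4 features). Median fragment length was 132 bases over all fragments and, weighted by counts in the same way, 153.5 in R2 contacts and 156.5 in Mpg contacts.

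Adjacent fragments were the largest class of distant contacts by the separation of the ends. They made up 43.0% ± 3.27 of distant counts in WT and 44.4% ± 4.77 in D3839 from R2, and 44.7% ± 3.28 and 45.5% ± 5.48 from Mpg (SD, n = 3). Non-adjacent fragments less than 1 kb apart added from 9.94% to 10.3% in the group means. Contacts with ends over 10 Mb apart were the next largest class, with 19.1% ± 3.10 in WT and 14.9% ± 2.14 in D3839 from R2 and 16.7% ± 2.60 and 13.2% ± 1.68 from Mpg. Contacts with ends 1 to 10 Mb apart held from 8.34% to 11.9% in the group means, and each of the 3 classes from 1 kb to 1 Mb held from 4.41% to 9.46%.

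Adjacent shares did not separate the genotypes. From R2 they were 39.9%, 42.6% and 46.4% in WT and 46.3%, 38.98% and 47.9% in D3839, and from Mpg they were 42.0%, 43.7% and 48.3% in WT and 47.6%, 39.3% and 49.6% in D3839. The genotypes overlapped in both, with exact permutation p = 0.8 for R2 and 0.9 for Mpg and adjusted p = 0.9 for each (n = 3 in each genotype). The direction of this difference turned when some samples were left out. The order of the 6 samples was the same from both viewpoints, from D3839 replicate 2 as the lowest to D3839 replicate 3 as the highest. Within samples the share was 1.38 percentage points higher from Mpg on average (higher in 6 of 6, exact sign-flip p = 0.03125, adjusted p = 0.0469), a difference that fell to 0.536 (p = 0.28125) when 5 Mb on each side were left out instead of 1 Mb. Inside the zone around the locus, adjacent fragments made up 36.1% ± 3.47 of counts in WT and 32.03% ± 4.59 in D3839 from R2, and 43.3% ± 3.61 and 38.2% ± 4.67 from Mpg.

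Contacts whose ends lay over 1 Mb apart took a smaller part of distant counts from Mpg than from R2. Within samples the share was 23.8% from Mpg against 28.4% from R2 on average, a difference of -4.57 percentage points, with Mpg lower in 6 of 6 samples (exact sign-flip p = 0.03125, adjusted p = 0.0469). By genotype it was 32.04%, 32.5% and 25.4% in WT and 25.1%, 31.4% and 23.8% in D3839 from R2, and 27.9%, 28.4% and 21.9% against 20.6%, 25.3% and 18.8% from Mpg. WT replicate 3 was low and D3839 replicate 2 high in both viewpoints, and the genotypes overlapped (exact permutation p = 0.2 and adjusted p = 0.267 in each viewpoint, n = 3).

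**Figure D3:**
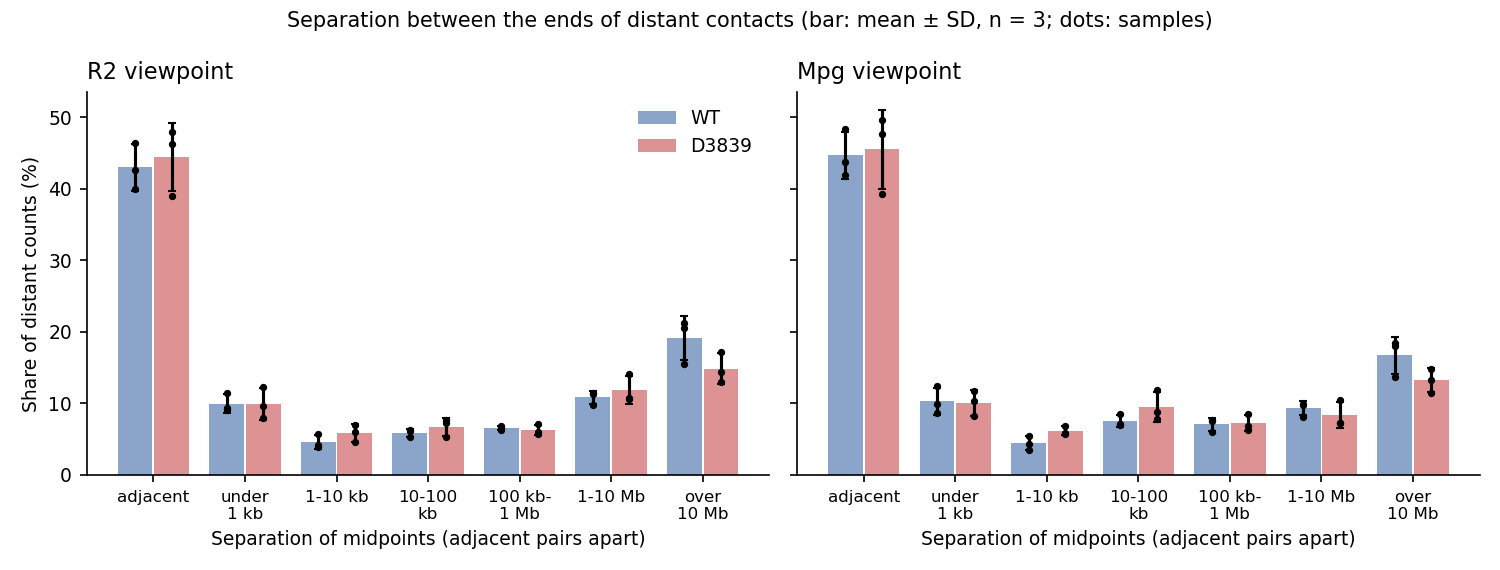
Share of distant counts in percent on the y axis by the separation of the fragment midpoints on the x axis, for WT and D3839 and each viewpoint, with bars for the mean ± SD of 3 samples and dots for samples. Adjacent pairs are the tallest class and pairs over 10 Mb apart the next, from both viewpoints.

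A contact could also join the opposite sides of the locus. Such contacts made up 9.95% ± 1.104 of distant counts in WT and 9.74% ± 0.867 in D3839 from R2, and 8.67% ± 1.24 and 7.23% ± 1.15 from Mpg (SD, n = 3, exact permutation p = 0.9 and 0.3). Among them, contacts with both ends in gene-rich bins were set against the number given by the margins of the same sample. From Mpg the ratio was 1.18 ± 0.0763 (SD, n = 6), above 1 in 6 of 6 samples, from 1.098 to 1.304 (exact sign-flip p = 0.03125). From R2 it was 0.988 ± 0.138, above 1 in 2 of 6 samples (exact sign-flip p = 0.71875), which were WT. By genotype the R2 ratio was 1.07 ± 0.143 in WT and 0.906 ± 0.0831 in D3839, and the Mpg ratio was 1.15 ± 0.0681 and 1.20 ± 0.0894 (SD, n = 3). These ratios rest on 106 to 310 counts with both ends gene-rich in each Mpg table and 38 to 136 in each R2 table, and the difference between the viewpoints was not tested.

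The centromeric share of distant counts was higher in D3839. Both ends lay on the centromeric side in 25.7%, 26.6% and 27.9% of distant counts in WT and 35.4%, 31.6% and 32.1% in D3839 from R2, a difference of 6.30 percentage points. From Mpg the values were 29.4%, 26.4% and 28.2% in WT and 32.7%, 31.6% and 31.2% in D3839, a difference of 3.84 percentage points. The genotypes did not overlap in either viewpoint (exact permutation p = 0.1, adjusted p = 0.2, n = 3). Between viewpoints the share differed by 0.0520 percentage points on average, with Mpg higher in 3 of 6 samples. The sides differ in length, with the farthest complete bin centred 28.66 Mb away on the centromeric and 88.34 Mb on the telomeric side. At 1 to 10 Mb, the mean ratio of telomeric to centromeric bins from R2 was 0.637 in WT and 0.736 in D3839. In the farther bands from R2, and in every band from Mpg, this mean ratio was lower in D3839 than in WT. The part of distance in the centromeric share was not tested.

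Profiles over the 115 complete bins were alike between samples, on the log2 scale of the percent of distant counts. Pearson's r between samples of the same genotype was from 0.885 to 0.920 for Mpg and from 0.833 to 0.869 for R2. Between genotypes it was from 0.890 to 0.924 for Mpg and from 0.779 to 0.834 for R2. Between the viewpoints of the same sample it was from 0.822 to 0.875. These values are across bins, which are not replicates, and the R2 tables hold fewer counts than the Mpg tables.

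Bins that differed between the viewpoints were sought by a paired test within the 6 samples, added after the data were seen, with each table scaled by its distant counts. In this edgeR quasi-likelihood test, 10 of 118 bins (8.47%) were higher from Mpg and 24 (20.3%) were higher from R2 at an adjusted p under 0.05. With TMM factors, which move the median of all bins from -0.29 to -0.07 on the log2 scale, the split was 23 and 13. In WT samples alone 3 and 3 bins passed, and in D3839 samples alone 0 and 6 (8 and 22 at an unadjusted p under 0.05). Without single samples, 6 to 10 bins were higher from Mpg and 14 to 21 higher from R2. With adjacent pairs left out the split was 6 and 14.

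The 10 bins higher from Mpg were all gene-rich, with a median of 22 gene starts against 9.5 over all bins. The bin chr11:49000001-50000000, with the kinase gene Mapk9, the receptor gene Flt4 and 15 olfactory receptor genes, was higher from Mpg by a log2 ratio of 0.61 ± 0.13 (SE, edgeR adjusted p = 5.97e-05). The interleukin bin chr11:53000001-54000000 followed with 0.56 ± 0.12 (edgeR adjusted p = 5.97e-05). The bin chr11:59000001-60000000, with Flcn, a regulator of nutrient signalling, and the Wnt ligand genes Wnt3a and Wnt9a, was higher by 0.62 ± 0.15 (edgeR adjusted p = 0.000775). The Hnrnpab bin chr11:51000001-52000000 was higher by 0.44 ± 0.12 (edgeR adjusted p = 0.00192). The bin chr11:75000001-76000000, with Ywhae, Crk and Prpf8, had the largest ratio of the 10, 0.77 ± 0.21 (edgeR adjusted p = 0.00354).

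The 24 bins higher from R2 had a median of 3.5 gene starts. Of these, 12 lay within 10 Mb of the locus, where 19 bins were tested, and 9 lay more than 50 Mb away on the telomeric side, where 40 were tested, a share close to the 20.3% over all bins. The lowest p belonged to chr11:39000001-40000000, without a protein-coding gene start, at a log2 ratio of Mpg to R2 of -1.32 ± 0.23 (SE, edgeR adjusted p = 8.59e-07), followed by its neighbour chr11:38000001-39000000, also without one, at -1.11 ± 0.23 (edgeR adjusted p = 5.86e-05). On the centromeric side, chr11:27000001-28000000 and chr11:24000001-25000000, again without a gene start, followed at -0.91 ± 0.20 and -0.71 ± 0.18 (edgeR adjusted p = 0.000175 and 0.000856). Of the 24, 6 were gene-rich, and these lay far out, such as chr11:109000001-110000000, with Prkar1a and Gna13, at -1.76 ± 0.42 (edgeR adjusted p = 0.000715). Across the 58 bins within 30 Mb, rho between the log2 ratio and gene starts was 0.814, and over all 118 bins it was 0.415.

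Summed over bins, the share of ends in gene-rich bins was 64.7% from Mpg and 55.8% from R2. The difference within samples was 8.89 percentage points on average and from 5.45 to 12.9 in the 6 samples (exact sign-flip p = 0.03125, adjusted p = 0.0469). From R2 this share was 60.7%, 59.0% and 56.1% in WT and 52.0%, 51.6% and 55.5% in D3839, which did not overlap (exact permutation p = 0.1, adjusted p = 0.2 over 6 added measures, n = 3). Within bands of distance, the mean R2 ratio of gene-rich to gene-poor bins given above was lower in D3839 up to 30 Mb and higher beyond. The part of distance in the gene-rich share was not tested. From Mpg the gene-rich share was 66.2%, 65.9% and 63.3% in WT and 64.9%, 63.95% and 64.01% in D3839, which overlapped (exact permutation p = 0.4, adjusted p = 0.48, n = 3).

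**Figure D4:**
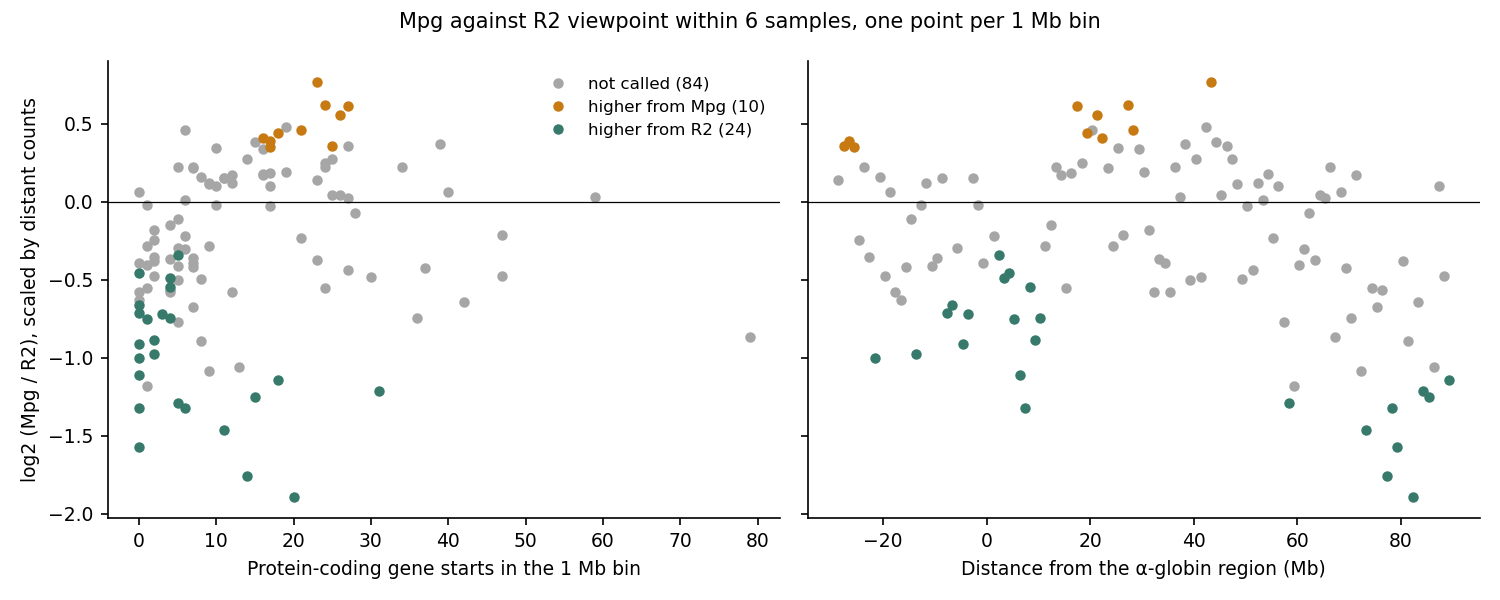
The log2 ratio of Mpg to R2 in each 1 Mb bin, scaled by distant counts, on the y axis against protein-coding gene starts in the bin and against distance from the locus in Mb on the x axes. The 10 bins higher from Mpg all hold at least 16 gene starts, and of the 24 higher from R2, 12 are among the 19 bins within 10 Mb of the locus and 9 among the 40 beyond 50 Mb.

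Between genotypes, bins were tested on 2 scales. Relative to all chromosome 11 counts, 76 of 118 bins (64.4%) were lower in D3839 from R2 and 0 (0%) higher by edgeR at an adjusted p under 0.05. From Mpg 29 (24.6%) were lower and 0 (0%) higher. At an unadjusted p under 0.05 there were still 0 higher bins in either viewpoint, and DESeq2 called 71 and 29 lower and 0 higher. The median log2 ratio over all bins was -0.99 from R2 and -0.58 from Mpg, and 4 and 3 of the 118 bins had a ratio above 0, so the calls go with the smaller distant share and are not independent of it. With TMM factors, which take out a shift shared by the bins, 9 bins were higher and 0 lower from R2 and 1 higher and 0 lower from Mpg. The Mpg count depended on single samples, with 5 bins lower without WT replicate 2, 12 without D3839 replicate 1, 16 without WT replicate 1 and 18 without D3839 replicate 2.

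The bins with the smallest p on this scale from R2 included chr11:54000001-55000000, with the cytokine genes Il3 and Csf2, which took 0.476%, 0.489% and 0.662% in WT and 0.162%, 0.216% and 0.247% in D3839. All D3839 values lay below all WT values, and the log2 ratio was -1.38 ± 0.26 (SE, edgeR adjusted p = 5.85e-05). The bin chr11:57000001-58000000, with Larp1 and the heart transcription factor gene Hand1, was lower by a log2 ratio of -1.28 ± 0.24 (edgeR adjusted p = 5.85e-05). The Trim58 bin was lower at -1.02 ± 0.21 (edgeR adjusted p = 0.000171). The bin chr11:61000001-62000000, with the kinase genes Mapk7 and Ulk2, was lower at -1.42 ± 0.31 (edgeR adjusted p = 0.000306).

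From Mpg the smallest p belonged to chr11:59000001-60000000, which took 0.911%, 0.881% and 0.713% in WT and 0.398%, 0.345% and 0.595% in D3839, at a log2 ratio of -0.90 ± 0.19 (SE, edgeR adjusted p = 0.000224). The interleukin bin chr11:53000001-54000000 was lower at -0.64 ± 0.14 (edgeR adjusted p = 0.000224). The bin chr11:54000001-55000000 was lower from this viewpoint too, at -0.86 ± 0.19 (edgeR adjusted p = 0.000405). The bin chr11:66000001-67000000, with the muscle myosin genes Myh2 and Myh3, was lower at -1.80 ± 0.45 (edgeR adjusted p = 0.00139), from 0.160%, 0.221% and 0.116% in WT to 0.0796%, 0.0163% and 0.0458% in D3839. This ratio rests on 28, 6 and 16 counts in D3839 and was -2.41 without D3839 replicate 1, -1.39 without D3839 replicate 2 and -1.55 without WT replicate 2, where it did not pass (edgeR adjusted p = 0.0791).

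Relative to distant counts alone, few bins of 1 Mb passed. From R2 3 bins (2.54%) were higher in D3839 and 0 (0%) lower by edgeR, with 13 and 16 at an unadjusted p under 0.05, and DESeq2 called 0 and 0. With TMM 9 were higher and 0 lower, and in bins of 2 Mb 8 were higher and 7 lower of 60. The 3 bins were chr11:21000001-22000000 with Mdh1, a malate dehydrogenase gene, at a log2 ratio of 0.92, chr11:28000001-29000000 with Efemp1, an extracellular matrix gene, at 0.88, and chr11:38000001-39000000, without a gene start, at 1.00 (edgeR adjusted p = 0.0309 each). They were not called with DESeq2 or with adjacent pairs left out, and none was called without D3839 replicate 1, D3839 replicate 2, WT replicate 1 or WT replicate 2. As percent of chromosome 11 counts the bin with Mdh1 took 0.322%, 0.282% and 0.305% in WT and 0.316%, 0.380% and 0.318% in D3839, which overlapped.

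From Mpg 1 bin (0.847%) was higher and 0 (0%) lower on this scale by edgeR, with 3 and 9 at an unadjusted p under 0.05, and DESeq2 called 0. It was chr11:30000001-31000000, the bin with Asb3, at a log2 ratio of 0.43 (edgeR adjusted p = 0.0476), and it was not called when any WT replicate, D3839 replicate 1 or D3839 replicate 2 was left out.

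The log2 ratio on the scale of distant counts fell with distance from the locus. From R2 its median was 0.56 from 1 to 10 Mb, with 17 of 19 bins above 0, -0.16 from 10 to 30 Mb, -0.50 from 30 to 60 Mb and -0.63 from 60 to 90 Mb. From Mpg the medians were 0.09, -0.10, -0.19 and -0.53 in the same order. Across all 118 bins rho with distance was -0.63 from R2 and -0.52 from Mpg, as a description over bins of the same 6 libraries. A line through log10 counts against log10 distance for each sample, a measure added after the data were seen, had a slope of -0.584 ± 0.0717 in WT and -0.872 ± 0.0502 in D3839 from R2, and -0.696 ± 0.0427 and -0.851 ± 0.0342 from Mpg. The genotypes did not overlap in either viewpoint (exact permutation p = 0.1, adjusted p = 0.2 over 6 added measures, n = 3).

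**Figure D5:**
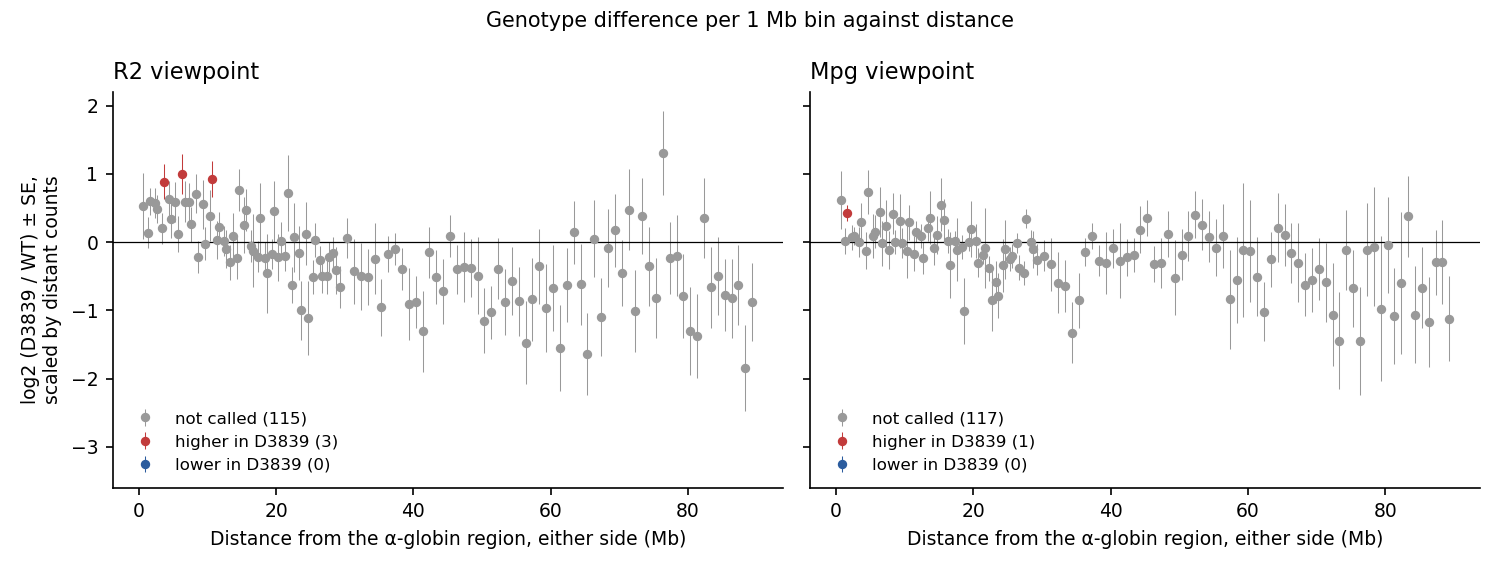
The log2 ratio of D3839 to WT ± SE in each 1 Mb bin, scaled by distant counts, on the y axis against distance from the locus in Mb on either side on the x axis. Most R2 bins within 10 Mb lie above 0 and most bins beyond 30 Mb lie below it, with 3 bins called from R2 and 1 from Mpg.

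Known genes were placed by the bin that holds their start. The 12 blood cell genes fell in 8 bins, and of these 7 were lower in D3839 from R2, where 64.4% of all bins were, and 4 from Mpg, where 24.6% of all bins were. Their median log2 ratio was -1.091 from R2 and -0.74 from Mpg, beside -0.99 and -0.58 over all bins tested. On the scale of distant counts 0 of the 8 passed in either direction from either viewpoint, near the shares over all bins of 2.54% higher from R2, 0.847% higher from Mpg and 0% lower from both. The list shares 6 of its 8 bins with the other lists, and its bins hold a median of 37.5 gene starts.

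Among them, the bin of Trim58 was the highest, as given above. The bin of Bcl11a, a repressor of fetal globin genes, took 0.655% ± 0.0648 in WT and 0.330% ± 0.0131 in D3839 from R2 (SD, n = 3), a log2 ratio of -0.98 (edgeR adjusted p = 0.000502). The bin of Ikzf1 took 0.402% ± 0.0747 in WT and 0.243% ± 0.0653 in D3839 from R2, and 0.585% ± 0.0504 and 0.343% ± 0.0585 from Mpg (edgeR adjusted p = 0.0186 and 0.00835). The bin of Slc4a1, the anion exchanger of the red cell membrane, which also holds Slc25a39, Itga2b and the astrocyte gene Gfap, took 0.161% ± 0.0201 in WT and 0.0688% ± 0.0118 in D3839 from R2 (edgeR adjusted p = 0.0207), and 0.117% ± 0.0545 and 0.0633% ± 0.0251 from Mpg, where it did not pass (edgeR adjusted p = 0.123).

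The 12 widely expressed genes fell in 9 bins, of which 9 were lower from R2 and 4 from Mpg (64.4% and 24.6% of all bins), with medians of -0.99 and -0.61. The bin of Trp53, Eif4a1 and Eif5a took 0.562% ± 0.217 in WT and 0.309% ± 0.0635 in D3839 from R2 (edgeR adjusted p = 0.00310), and 0.620% ± 0.108 and 0.477% ± 0.0632 from Mpg, where it did not pass (edgeR adjusted p = 0.131). Genes and families used in other tissues, 156 genes in 22 bins, gave 17 and 8 lower bins of the 22, with medians of -0.99 and -0.55. On the scale of distant counts 0 bins of either list passed from either viewpoint, again near the 2.54% (R2) and 0.847% (Mpg) over all bins. The Hoxb cluster bin took 0.0843% ± 0.0538 in WT and 0.0315% ± 0.0156 in D3839 from R2, and the bin with most keratin genes took 0.127% ± 0.0560 and 0.0341% ± 0.0184. From Mpg neither bin passed, with 0.0735% ± 0.0246 and 0.0612% ± 0.0298 for Hoxb (edgeR adjusted p = 0.673) and 0.0632% ± 0.0237 and 0.0377% ± 0.0315 for keratin genes (edgeR adjusted p = 0.307).

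Bins of the lists were also set against their surroundings, taken as the median of up to 10 flanking bins. In WT, 7 of 8 blood cell bins and 9 of 9 bins of widely expressed genes stood above it from R2, and 7 of 8 and 7 of 9 from Mpg. In D3839 it was 6 of 8 and 7 of 9 from R2, and 6 of 8 and 9 of 9 from Mpg. Among complete bins of other tissues it was 10 of 21 from R2 and 11 of 21 from Mpg in both genotypes, and among all complete bins 58 of 115 and 57 of 115 in WT and 58 of 115 and 61 of 115 in D3839. Median gene starts were 37.5, 24 and 20 in the bins of the lists and 9.5 over all bins, and the part of gene number in these counts was not tested.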

How the data were processed

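Tri-C libraries of 3 WT and 3 D3839 samples were read from 2 viewpoints, giving 12 tables. Reads were processed by the authors in CCseqBasic, using Trim Galore and Bowtie with mm9 (versions not given in the sources used here). PCR duplicates and fragments of other capture probes were taken out, reads needed at least 2 reporters, and technical replicates of WT were pooled. The deposited values are raw counts of unique contacts for each pair of NlaIII fragments, not normalized. Pairs from 1 read depend on each other, so counting error is understated.

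Positions, genes and sequences are from NCBIM37 (mm9) with GENCODE vM1. Shares were compared by two-sided exact permutation tests over samples and, between viewpoints, by exact sign-flip tests within samples (numpy 2.4.6, python 3.11.15, scipy 1.17.1), with Benjamini-Hochberg adjustment. Bins were tested with edgeR 4.0.16 (quasi-likelihood) in R 4.3.3, with at least 10 counts over 6 samples, library size as all chromosome 11 or all distant counts, and a threshold of 0.05. DESeq2 1.42.0, TMM, bins of 2 Mb, wider zones, single counting of pairs, adjacent pairs left out, the replicate block and each sample left out were alternatives. On simulated data of 118 bins with 24 changed, edgeR recovered 4 (R2) and 15 (Mpg) changes of 2-fold, and 24 and 24 of 4-fold, with 0 and 1 false calls at 2-fold and 1 and 2 at 4-fold.

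Named were the 10 highest bins per viewpoint, up to 5 bins per direction with the smallest p (1 such bin is not reported here), and the 5 adjacent and 5 non-adjacent pairs with the most counts. Pairs in 4 tables were named after their values were seen. Members, gene lists and tests were chosen with earlier results of these data known. The paired bin test, gene-rich bins, slopes and cross-side ratios were added after the data were seen.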

Additional observations from a re-analysis of the deposited data

How the results depend on the processing

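The distant, over-1-Mb and centromeric-side shares kept their direction under every alternative run. The adjacent share turned from higher to lower in D3839 for R2 without WT replicate 1 (-0.129 points) or D3839 replicate 3 (-0.371), and for Mpg without WT replicate 1 (-0.504), D3839 replicate 1 (-0.221) or D3839 replicate 3 (-1.22), with ranges of -0.371 to 4.11 and -1.22 to 3.95. Of bins scaled by all chromosome 11 counts, 9 were higher and 0 lower for R2 and 1 higher and 0 lower for Mpg with TMM, which by construction removes a shared shift, and 47 of 60 bins of 2 Mb were lower for R2 and 33 of 60 for Mpg. Without single samples, 5 to 34 were lower for Mpg. Of bins scaled by distant counts, the R2 calls of 3 higher and 0 lower became 0 higher with DESeq2, with adjacent pairs left out and with a replicate block, 1 with pairs counted once, 9 with TMM, 8 higher and 7 lower of 60 bins of 2 Mb, and 0 to 5 higher and 0 to 2 lower without single samples. The Mpg call became 0 with DESeq2, with pairs counted once and with adjacent pairs left out (then 1 lower), 1 was higher and 1 lower of 60 bins of 2 Mb, and 0 to 1 were higher and 0 to 1 lower without single samples. Deviations of same-numbered samples correlated at -0.09 to 0.10 and not every sample matched its own number best. With a replicate block 68 bins (R2) and 34 (Mpg) were lower on the first scale, the distant share differed by -10.3 and -8.01 points (exact p = 0.25, the smallest 3 pairs allow), and among named bins the block ended the calls of the 3 R2 bins given above and of no other. Mpg against R2 gave 23 higher and 13 lower bins with TMM, 6 and 14 with adjacent pairs left out, and 14 and 34 with pairs counted once. In bins of 2 Mb 7 were higher and 14 lower of 60. Without single samples 6 to 10 were higher and 14 to 21 lower (6 higher without D3839 replicate 1, 14 lower without WT replicate 1). Without single samples 5 pairs allow no p below 0.0625, and the differences of Mpg and R2 were 5.05 to 5.83 (distant share), 1.25 to 1.60 (adjacent), -4.79 to -4.27 (over 1 Mb apart) and 8.09 to 9.58 (gene-rich), with Mpg cross-side ratios of 1.15 to 1.20. The adjacent difference was 1.07 (exact p = 0.0625) with 2 Mb and 0.536 (exact p = 0.28125) with 5 Mb left out on each side. Where no value is named above, the cause of a change was not tested. For single named bins in the comparison of genotypes, a call was lost in 43 of the values under other settings and kept in 125. In that of viewpoints it was kept in 100, with no change of direction. These 100 leave out the fits within 1 genotype, where named calls were lost. In D3839 samples alone 0 bins passed as higher from Mpg and 6 as higher from R2, and in WT samples alone 3 and 3. Counts were lowest, and standard errors widest, in the far telomeric bins.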
